A study of Mus musculus with 12 samples.

Results

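The genes described here carry signals of the FGF, BMP, and TGF-beta families in the embryonic mouse cortex. They were chosen by symbol: every 5mC or 5hmC peak whose nearest gene in the deposited tables is an FGF, an FGF receptor, a BMP or GDF ligand, a TGF-beta ligand or receptor, an activin subunit or receptor, a BMP receptor, a Smad, a Sprouty or Spred protein, or a BMP antagonist. This gave 332 of 55085 peaks of 5mC near 61 genes and 290 of 47478 peaks of 5hmC near 57 genes. Together these were 622 of 102563 peaks near 64 of 16293 genes, of which 54 had peaks of both marks, 7 had 5mC peaks alone, and 3 had 5hmC peaks alone. RefSeq holds 86 protein-coding genes matching the same rule, and 22 of them were the nearest gene of no peak.

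The cells came from the cortex of E14.5 mouse embryos heterozygous for both a Btg2-RFP and a Tubb3-GFP reporter. Proliferating progenitors (PP, negative for both reporters), differentiative progenitors (DP, Btg2+ and Tubb3-), and neurons (N, Tubb3+) were sorted, and all 3 cell types therefore carried the same alleles. The PP gate takes any cell without either reporter. 5mC was enriched by MeDIP and 5hmC by hMeDIP, in 6 IP and 6 input samples, 1 of each per cell type and mark.

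FGFs bind receptor tyrosine kinases (Fgfr1 to Fgfr4) and act mainly through the MAP kinase cascade, which Sprouty and Spred proteins hold back. Ligands of the TGF-beta superfamily, which include BMPs, GDFs, activins, and TGF-betas, bind a type II receptor that phosphorylates a type I receptor, and the type I receptor phosphorylates a receptor Smad, which enters the nucleus with Smad4. In the cortex, FGF signalling maintains radial glia and patterns the cortical field, and BMP signalling from the dorsal midline is held in check by secreted antagonists such as Noggin. 5-hydroxymethylcytosine is the product of the oxidation of 5-methylcytosine by Tet enzymes.

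Each peak had 1 value per cell type, the log2 of its mean normalised read level, averaged over replicates by the authors. No value per replicate and no input value was used, so no error and no test can be given, and every comparison below describes these mean levels. The difference between 2 cell types was taken as the later minus the earlier on the log2 scale and was centred on the median difference over all peaks of that mark. Before centring, that median was -0.17 for 5mC and -0.08 for 5hmC from PP to neurons, and a change of the whole genome and a difference in scaling cannot be told apart. Peaks differing by at least 1.5-fold (0.585 on the log2 scale) are counted as lower or higher. Fewer cells with a modified site and less signal per cell also cannot be told apart in sorted bulk DNA.

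The expression scores in the tables, from an earlier RNA-seq study of the same cell types, followed the sort. Tubb3, a neuronal tubulin, scored 3814, 25259, and 105657 in PP, DP, and neurons. Btg2 was highest in DP, at 38556, against 19335 in PP and 7484 in neurons. Pax6, Sox2, Hes1, and Hes5, markers of radial glia, were all lower in neurons than in PP.

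The gene named for a peak was not always the gene it lies in. All 17 peaks listed under Fgfr2 (10 of 5hmC and 7 of 5mC) lie inside Ctbp2, a transcriptional corepressor, between 2.79 and 2.84 Mb away from the RefSeq span of Fgfr2 on chromosome 7. In all, 78 of the 622 peaks (12.5%), under 18 gene names, lie inside another protein-coding RefSeq gene, among them 14 Smad2 peaks inside Zbtb7c and 8 Bmp3 peaks inside Cfap299. Conversely, 42 peaks of 5mC and 26 of 5hmC lie inside the RefSeq span of a gene of these families but are listed under another symbol. Distances and positions inside or outside a gene are those of the tables unless RefSeq is named. Counts by role and by gene include the peaks inside another gene, and the counts without them are given where they differ in the peaks called.

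Most of these peaks lay far from start sites, and few could be set on a RefSeq promoter sequence. The 3 windows shown here, each from 250 bases before to 50 after a RefSeq start (GRCm38.p6), are those on which the text below turns: the window under the pair of Smad5 peaks with the lowest 5mC level in neurons, the promoter of Fgf3, the only 1 found under a peak of its own gene, and a Ctbp2 start under peaks listed as Fgfr2. CpG dinucleotides are in capitals.
Gm33019 start, 20.5 kb upstream of Smad5, plus strand, chr13:56682354-56682653: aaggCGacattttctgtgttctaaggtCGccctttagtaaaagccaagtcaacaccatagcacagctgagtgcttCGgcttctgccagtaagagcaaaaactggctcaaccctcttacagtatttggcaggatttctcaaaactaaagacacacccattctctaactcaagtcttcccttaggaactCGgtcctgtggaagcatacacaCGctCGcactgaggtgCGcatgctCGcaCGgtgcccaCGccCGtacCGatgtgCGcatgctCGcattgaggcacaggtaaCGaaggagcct
Fgf3 start, plus strand, chr7:144838362-144838661: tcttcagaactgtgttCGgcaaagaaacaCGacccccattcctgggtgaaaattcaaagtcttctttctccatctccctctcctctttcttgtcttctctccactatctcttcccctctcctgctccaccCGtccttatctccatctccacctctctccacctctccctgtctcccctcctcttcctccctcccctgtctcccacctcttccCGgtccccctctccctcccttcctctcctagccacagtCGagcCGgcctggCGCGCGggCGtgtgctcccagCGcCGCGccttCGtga
Ctbp2 start, under peaks listed as Fgfr2, minus strand, chr7:133081811-133082110: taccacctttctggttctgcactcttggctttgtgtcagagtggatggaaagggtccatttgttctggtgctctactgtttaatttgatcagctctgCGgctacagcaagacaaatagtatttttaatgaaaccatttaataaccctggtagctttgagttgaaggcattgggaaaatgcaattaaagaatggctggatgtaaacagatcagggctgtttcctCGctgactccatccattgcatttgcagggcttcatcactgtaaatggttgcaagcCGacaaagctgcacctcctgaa
The Gm33019 window held 15 CpGs, the Fgf3 window 14, and the Ctbp2 window 3, against a median of 7 over 32851 RefSeq windows and of 25 over the windows of 47 of the 64 genes. The 5mC peak covered positions 97 to 268 of the Gm33019 window with 10 of its CpGs, and the 5hmC peak covered positions 155 to 295 with 12. The E-box CANNTG, read on either strand because it is its own reverse complement, was found once in the Gm33019 window, 2 times in the Ctbp2 window, and not in the Fgf3 window. It was found in 72.3% of all windows.

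The signalling genes had peaks at a greater distance from start sites than the tables as a whole. The median distance was 31.3 kb for 5mC, against 20.4 kb over all peaks, and 39.8 kb for 5hmC, against 27.2 kb. Beyond 50 kb lay 36.4% of their 5mC peaks and 43.1% of their 5hmC peaks, against 24.8% and 33.7% of all peaks. Inside the named gene lay 38.9% of the 5mC peaks (all peaks 40.2%) and 43.8% of the 5hmC peaks (36.2%). By the starts in the tables, no peak overlapped the start of its gene, against 0.47% of all 5mC peaks and 0.21% of all 5hmC peaks. Within 1000 bp of it lay 5 peaks. These were 1 of 5mC (0.30%, against 2.99% of all peaks) and 4 of 5hmC (1.38%, against 3.21%).

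Of these 5, 1 passed 1.5-fold between PP and neurons. The 5hmC peak 374 bp upstream of Fgf22, a ligand of presynaptic differentiation, had levels of 4.92, 4.68, and 3.92 in PP, DP, and neurons, a centred difference of -0.92 from PP to neurons. At Fgf3, 340 bp inside the gene by the start in the tables but upstream of the RefSeq start, in the window shown above, 5hmC was 5.38, 4.91, and 4.97. The 5hmC peak 590 bp upstream of Gdf11 and the 5mC peak 506 bp inside Inhbc differed by less than 1.5-fold between PP and neurons.

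Taken over all their peaks, the signalling genes followed the tables as a whole. From PP to DP, 18 of 332 5mC peaks (5.42%) were at least 1.5-fold lower, against 5.44% of all peaks, and 9 (2.71%) were higher, against 4.60%. From DP to neurons, 33 (9.94%) were lower, against 9.36%, and 19 (5.72%) were higher, against 5.12%. Across the whole step from PP to neurons, 33 (9.94%) were lower, against 10.2%, and 12 (3.61%) were higher, against 5.00%. The shares of lower 5mC peaks were thus near the background in each step, though fewer peaks were higher from PP to DP. Among peaks whose higher level in DP and neurons reached the median of all peaks, 16 of 165 (9.70%) were lower, against 5.37%. From PP to neurons the same filter gave 13 of 161 (8.07%), against 6.75%, and from PP to DP 5 of 170 (2.94%), against 2.28%. In both the genes and the tables, more peaks were lower than higher by the neuronal stage.

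For 5hmC the direction was the opposite one, again as in the tables as a whole. From PP to DP, 40 of 290 peaks (13.8%) were higher, against 11.2%, and 16 (5.52%) were lower, against 4.68%. From DP to neurons, 45 (15.5%) were higher, against 16.5%, and 13 (4.48%) were lower, against 7.07%. From PP to neurons, 75 peaks (25.9%) in 30 genes were higher, against 22.1%, and 20 (6.90%) were lower, against 7.71%. Peaks were called where any cell type had one, so a peak at a low level in PP had to be higher elsewhere, and low levels give large ratios. Among the 127 peaks whose higher level in PP and DP was at or above the median of all peaks, 5 (3.94%) were higher in DP, against 5.46% of all such peaks. From PP to neurons the same restriction left 38 of 141 (27.0%), against 23.2%.

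**Figure D1:**
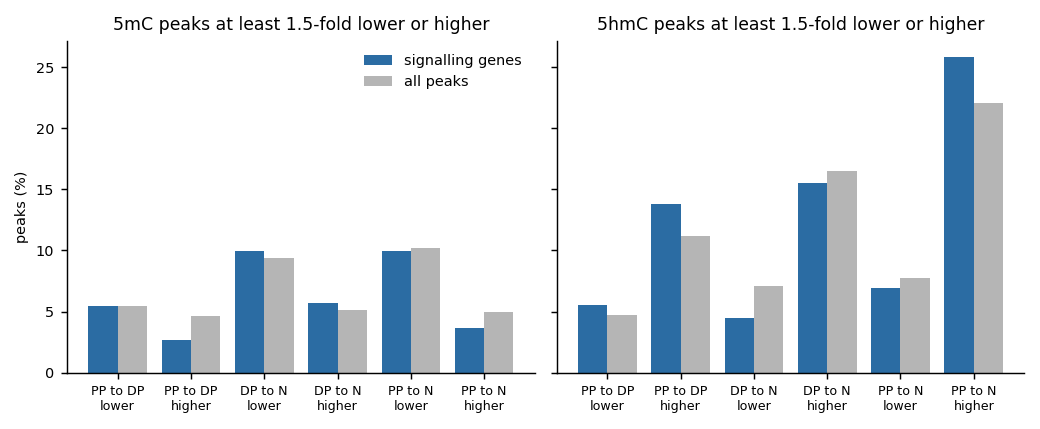
Percent of peaks (y axis) at least 1.5-fold lower or higher in centred level in each step between PP, DP, and neurons (N), for the signalling genes (blue, 332 peaks of 5mC and 290 of 5hmC) and for all peaks of the mark (grey, 55085 and 47478). The blue and grey bars were close in most comparisons, and the largest pair was 5hmC higher from PP to neurons, 25.9% and 22.1%.

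Among the FGF genes, the receptors carried the highest share of 5hmC peaks that were higher in neurons. Of 19 receptor peaks of 5hmC, 11 were higher and none was lower, against 22.1% and 7.71% of all peaks, with a median difference of 0.68. Without the 10 peaks inside Ctbp2, 6 of 9 were higher. In 5mC, 5 of 26 receptor peaks were lower in neurons and none was higher, against 10.2% and 5.00% of all peaks. Without the Ctbp2 peaks, 5 of 19 were lower.

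Fgfr3, a receptor abundant in radial glia, had a gain in 5hmC and a loss in 5mC inside the gene. At 9.99 kb from the start, 5hmC was 3.20, 3.81, and 4.72 in PP, DP, and neurons, and 5mC in an overlapping peak was 4.88, 4.63, and 3.66. A peak 5.16 kb upstream had 5hmC levels of 3.01, 3.56, and 4.90, and the 5mC peak overlapping it differed by -0.12. In each of these 5hmC peaks, DP lay between PP and neurons. The other 5hmC peak of Fgfr3, also inside the gene, was at 4.26, 4.33, and 3.92, a difference of -0.26 from PP to neurons.

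At Fgfr4, the 5hmC peak 3.69 kb inside the gene was at 1.14, 3.57, and 4.48 in PP, DP, and neurons. Just beyond the end of the gene, 16.4 kb from its start, 5mC was 5.71, 5.66, and 3.98, and 5hmC was 5.19, 5.69, and 5.93. The loss in 5mC at that site fell between DP and neurons. A peak 16.4 kb upstream of Fgfr1 was also lowest in neurons, with 5mC at 5.57, 5.89, and 4.01, while its nearest 5hmC peak, 17.0 kb upstream, was at 4.91, 5.30, and 5.47. Fgfrl1, a receptor without a kinase domain, had a 5mC peak 6.03 kb upstream with levels of 4.40, 4.05, and 3.34.

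Fgfr2 itself could be read only from peaks that the tables list under Gm5903. Of 7 such 5hmC peaks inside its RefSeq span, 4 were at least 1.5-fold higher in neurons, 1 of them from 2.01 in PP over 4.18 in DP to 5.08 in neurons. Of 3 such 5mC peaks, 1 was lower, with levels of 5.48, 5.16, and 3.95, and the 5hmC peak overlapping it was at 5.95, 6.20, and 6.47. Likewise, 15 peaks inside Fgfr1 were listed under Gm16159, and 1 of the 4 in 5hmC was higher and 1 lower in neurons, while none of the 11 in 5mC passed 1.5-fold.

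The FGF ligands that bind receptors had no 5mC peak past 1.5-fold between PP and neurons, out of 31 (10.2% of all peaks were lower and 5.00% higher). Of their 20 peaks of 5hmC, 3 were higher and 3 lower, against 22.1% and 7.71% of all peaks, or 2 and 2 of 16 without the peaks inside another gene. Fgf8, the ligand of the rostral patterning centre, held 1 of each: a peak 31.5 kb downstream at 4.34, 3.75, and 5.19, and a peak 3.82 kb inside the gene at 4.51, 4.43, and 3.72. The 5hmC peak 19.5 kb inside Fgf7, which also lies inside Fam227b, was at 4.97, 4.46, and 3.83. Fgf15 and Fgf18 had 1 and 2 peaks of 5mC, none of them past 1.5-fold between PP and neurons.

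The FGF homologous factors, which stay in the cell and bind sodium channels, held the highest 5hmC difference of the FGF genes. At 52.8 kb upstream of the start of Fgf12 given in the tables, and inside its longer RefSeq span, 5hmC was 1.49, 3.24, and 5.36 in PP, DP, and neurons. 5mC in the overlapping peak was 5.48, 5.41, and 3.97, and a further 5mC peak 47.0 kb inside the gene was at 5.82, 5.62, and 4.32. 5hmC was therefore already higher in DP at this locus, whereas 5mC in DP differed from PP by -0.06. Of the 24 peaks of 5hmC near this group, 2 were higher and 2 lower in neurons, against 22.1% and 7.71% of all peaks.

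The Sprouty and Spred inhibitors had 6 of 20 peaks of 5hmC higher in neurons, against 22.1% of all peaks, and all 6 lay inside Spred2. The levels of those peaks in PP ran from 2.62 to 4.04 and in neurons from 4.33 to 5.13. Spry2 had 5mC peaks alone, 10 in all. 24.3 kb downstream of it, 5mC was 5.25, 3.79, and 4.38 in PP, DP, and neurons, so that DP was the lowest. Spry4, named after its values were seen, held the lowest neuronal 5mC level of the group, 2.25 at 17.9 kb downstream, against 4.08 in both progenitors.

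**Figure D2:**
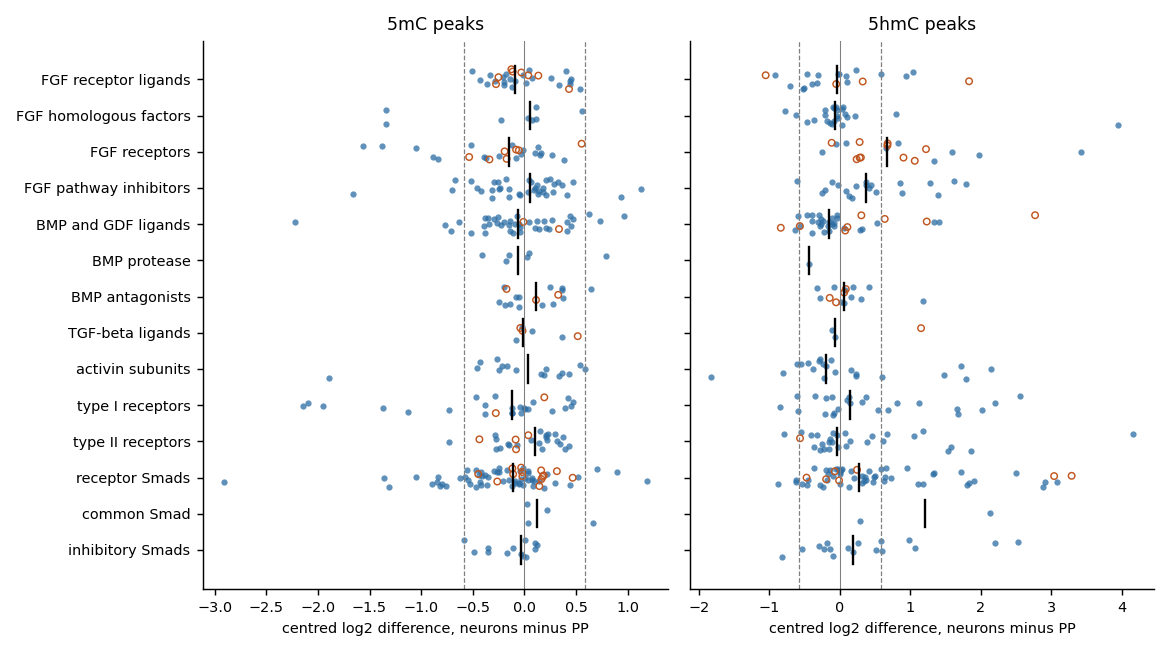
Centred log2 difference in level from PP to neurons (x axis, 1 point per peak) for 5mC (left) and 5hmC (right) by the role of the named gene; short black lines are medians, dashed lines are 1.5-fold, and open orange circles are peaks inside another protein-coding RefSeq gene. In 5hmC, the FGF receptors have a median of 0.68 over 19 peaks, and the common Smad, with 2 peaks, one of 1.21; in 5mC, the lowest 5mC point, at -2.91, belongs to a receptor Smad.

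Among ligands of the TGF-beta superfamily, single loci stood apart while most peaks differed little. BMP and GDF ligands had 5 of 37 peaks of 5hmC higher and 3 lower in neurons, against 22.1% and 7.71% of all peaks. In 5mC, 4 of 42 peaks were lower and 3 higher, against 10.2% and 5.00%. Of the 5 higher in 5hmC, 3 were listed under Bmp3 and lay inside Cfap299 or Prkg2. Without the peaks inside another gene, 2 of 29 were higher in 5hmC and 2 lower. Gdf10, a divergent member of the BMP family, held the lowest 5mC value, 111 kb upstream, with 4.50, 4.16, and 2.11 in PP, DP, and neurons, and overlapping 5hmC at 3.89, 4.18, and 5.15. Bmp7 showed the opposite sign in 5mC, with 4.08, 5.48, and 4.87 at 25.3 kb inside the gene, and a 5hmC peak 8.98 kb inside at 4.44, 4.45, and 5.76. Near Bmp2, 1 of 4 peaks of 5mC was lower from PP to neurons and 1 higher, against 10.2% and 5.00% of all peaks. Both lay between 22.2 and 42.8 kb upstream. From PP to DP 1 was higher (4.60% of all peaks), and from DP to neurons 1 was lower and 1 higher (9.36% and 5.12%). The only Bmp4 peak, 5hmC at 19.6 kb upstream, was at 4.03, 4.39, and 3.68.

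Gdf6 had lower 5hmC in DP than in PP at 27.6 kb upstream (5.16, 4.37, and 4.61 in PP, DP, and neurons) and lower 5hmC in neurons at 34.0 kb downstream (5.04, 5.35, and 4.33). Of the TGF-beta ligands, Tgfb2 had the only peak past 1.5-fold between PP and neurons. It was a 5hmC peak 15.4 kb upstream, inside Rrp15, at 3.96, 4.83, and 5.03.

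Inhbb, the activin beta-B subunit, had the widest range of 5hmC of these ligands. 54.6 kb downstream, 5hmC was 5.34, 6.45, and 7.40 in PP, DP, and neurons, while 5mC in the overlapping peak was 5.11, 4.68, and 3.05. 3 peaks of 5hmC between 4.14 and 5.05 kb inside the gene were at 2.77 to 3.44, 4.14 to 4.76, and 4.49 to 5.08 in PP, DP, and neurons. In these 4 peaks DP was above PP by more than the step from DP to neurons. A peak 81.3 kb downstream ran the other way, from 4.92 over 4.03 to 3.005. Inhba, the beta-A subunit, had 6 peaks of 5hmC, of which none was higher and 1 was lower from PP to neurons. From PP to DP 2 were lower, and from DP to neurons 1 was higher.

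The secreted BMP antagonists had few differences in 5hmC, with 1 of 15 peaks higher in neurons and none lower, against 22.1% and 7.71% of all peaks. The peak that was higher belonged to Nog (Noggin), 48.3 kb downstream, at 3.55, 4.83, and 4.65. A second Nog peak of 5hmC, 47.6 kb downstream, was highest in DP, at 3.81, 4.31, and 3.44. Grem1 had 7 peaks, 3 of them inside another gene, and none past 1.5-fold in any step.

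The receptors of the superfamily had loci lower in 5mC and higher in 5hmC in both of their classes. Type I receptors had 8 of 24 peaks of 5hmC higher and 3 lower in neurons, against 22.1% and 7.71% of all peaks. In 5mC, 6 of 26 peaks were lower and none higher, against 10.2% and 5.00%. Acvr1b, the main type I receptor for activin, had 2 adjacent 5mC peaks 8.35 and 7.96 kb upstream, at 6.04, 6.14, and 3.92 and at 4.93, 4.38, and 2.61. 5hmC over the former was 4.46, 4.93, and 6.04. Acvr1, a BMP type I receptor, had 5mC at 4.59, 4.27, and 3.05 and 5hmC at 2.36, 2.63, and 4.30 in an overlapping pair 25.3 kb inside the gene. At 19.1 kb inside it, 5hmC was lower in neurons than in DP, at 4.72, 5.22, and 4.03.

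Bmpr1b, a further BMP type I receptor, had 4 of 11 peaks of 5hmC higher and 3 of 12 of 5mC lower in neurons, and the highest differences were at different sites. 5mC 68.7 kb inside the gene was 6.06, 5.74, and 3.79, and 5hmC 64.3 kb upstream was 2.84, 4.64, and 5.31. Acvr1c had its only 5hmC peak 1.49 kb inside the gene, at 3.66, 3.64, and 4.698. The 3 peaks of Tgfbr1 stayed within 1.5-fold in every step.

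Of the type II receptors, 8 of 29 peaks of 5hmC were higher in neurons and 1 was lower, against 22.1% and 7.71% of all peaks. In 5mC, 1 of 26 was lower, a smaller share than the 10.2% of all peaks. Tgfbr2, which binds TGF-beta itself, held 46 of these 55 peaks and the highest 5hmC difference of all the signalling genes. 176 kb upstream, 5hmC was 0.93, 0.90, and 5.01 in PP, DP, and neurons, a centred difference of 4.17, and the 5mC peak overlapping it was at 4.83, 5.23, and 4.37. 123 kb upstream, 5hmC was 3.75, 4.68, and 5.53, and 5mC was 5.26, 5.13, and 4.36. 1.02 kb upstream of the start, 5mC was lowest in DP, at 5.34, 4.30, and 5.23. Bmpr2, the main BMP type II receptor, had 1 of 2 peaks of 5hmC higher in neurons, 32.4 kb inside the gene, at 3.67, 3.77, and 4.26.

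The receptor Smads held the most peaks, 72 of 5mC and 58 of 5hmC. From PP to neurons, 19 of the 58 were higher in 5hmC and 3 lower, against 22.1% and 7.71% of all peaks. In 5mC, 11 of the 72 were lower and 3 higher, against 10.2% and 5.00%. Without the peaks inside another gene, which include those of Smad2 in Zbtb7c and of Smad5 in Trpc7, 17 of 51 were higher in 5hmC and 11 of 58 lower in 5mC.

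Smad5, a BMP Smad, had the lowest 5mC level in neurons of all the signalling genes, at the Gm33019 sequence shown above. 5mC there was 5.05, 4.33, and 1.98 in PP, DP, and neurons, a difference of -2.91. 5hmC in the overlapping peak was 5.27, 5.37, and 5.77, a difference of 0.58 and just under 1.5-fold. 1 further 5mC peak, 18.5 kb upstream, was at 4.10, 4.17, and 2.57. The highest 5hmC difference listed under Smad5, from 2.03 over 1.49 to 5.24, lay inside Trpc7, 88.5 kb downstream.

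Smad3, which transmits TGF-beta and activin signals, had 7 of 12 peaks of 5hmC higher in neurons. A further 5 peaks of 5hmC inside its RefSeq span were listed under Aagab, 1 of them higher and 2 lower, and of 4 such peaks of 5mC 1 was lower, at -1.65. Of the 7 higher peaks, 3 were at 2.40 or below in PP: 54.9 kb inside the gene, at 1.47, 1.97, and 4.28, 47.9 kb inside, at 1.65, 2.58, and 4.66, and 119 kb upstream, at 2.40, 4.55, and 4.82. The last was already high in DP, and the other 2 were not. 5mC 30.5 kb upstream was lowest in DP, at 5.77, 4.46, and 4.97, with little difference in 5hmC (5.45, 5.53, and 5.37). Smad1, a BMP Smad, had 5 of 14 peaks of 5hmC higher in neurons, all inside the gene, among them 1 at 13.3 kb with 4.17, 5.30, and 5.40. Smad2 had 48 peaks, of which 14 lay inside Zbtb7c. In 5hmC, 4 of 20 were higher and 2 lower, or 3 of 15 and 2 without those in Zbtb7c, and at 72.3 kb downstream 5hmC was 2.79, 4.19, and 5.63.

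Smad4, the partner of all receptor Smads, had 6 peaks. 5hmC 38.2 kb inside the gene was 2.06, 3.86, and 4.11, and 5mC 11.5 kb upstream was 6.19, 6.22, and 6.68, a centred difference of 0.66 that is 0.49 without centring. Smad6 and Smad7, which inhibit the pathway, together had 5 of 17 peaks of 5hmC higher in neurons, against 22.1% of all peaks. Of the 5, 4 were near Smad7.

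At 50 places in 23 genes, a 5mC and a 5hmC peak of these genes overlapped, which is 15.1% of their 5mC peaks and 17.2% of their 5hmC peaks (12.2% and 14.2% over all peaks). From PP to neurons, 9 of the 50 pairs (18.0%) were 5mC-loss/5hmC-gain, that is at least 1.5-fold lower in 5mC and higher in 5hmC, against 18.8% of all 6735 pairs. They belonged to Acvr1, Acvr1b, Fgf12, Fgfr3, Fgfr4, Gdf10, Inhbb, Smad3, and Tgfbr2. A pair inside the RefSeq span of Fgfr2, listed under Gm5903, also met this rule, at -1.36 in 5mC and 0.60 in 5hmC. Pairs were counted by symbol, so it is not among the 9. None of the 9 lies inside another protein-coding gene. From DP to neurons, 10 pairs (20.0%) had both differences, against 12.5% of all pairs, and from PP to DP none had, against 3.19%. In 5hmC, 27 of the 50 were higher from PP to neurons and none was lower, against 2892 and 221 of the 6735 pairs. In 5mC, 12 of the 50 were lower and none higher, against 1633 and 252 of the 6735. Across the 50 pairs, Spearman's rho between the differences in both marks was -0.51, as over all pairs (-0.51), a description of sites that share libraries.

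**Figure D3:**
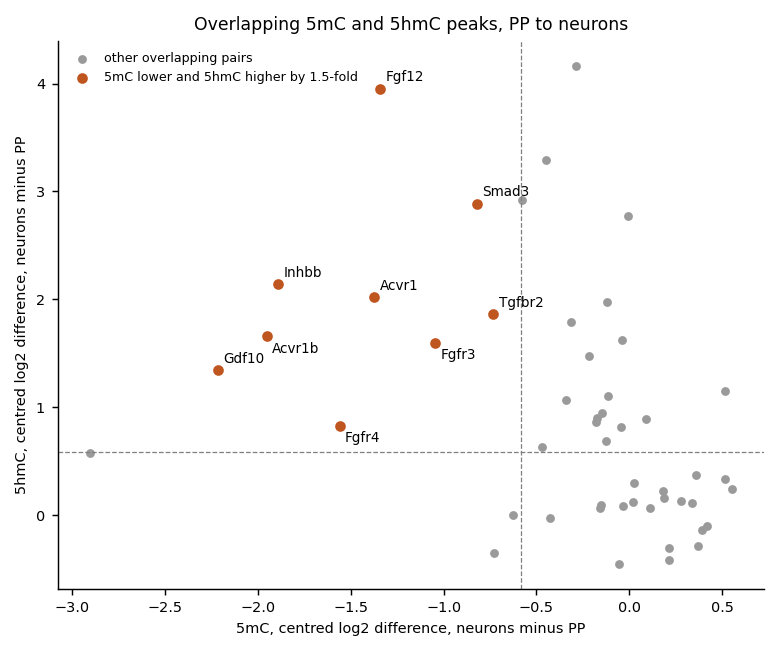
Centred log2 difference from PP to neurons in 5mC (x axis) and 5hmC (y axis) for the 50 overlapping pairs of peaks; dashed lines are 1.5-fold and the 9 pairs lower in 5mC and higher in 5hmC are named in orange. The grey point furthest to the left, at -2.91 in 5mC, is the Smad5 pair, which lies just under 1.5-fold in 5hmC.

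**Figure D4:**
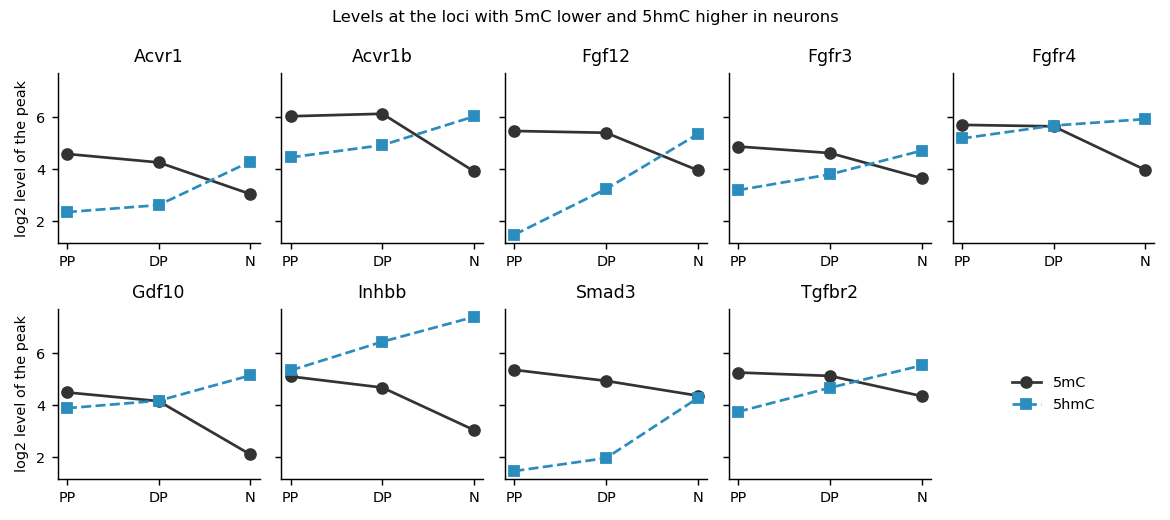
Log2 level (y axis) of 5mC (black, solid) and 5hmC (blue, dashed) in PP, DP, and neurons (N) at the 9 overlapping pairs lower in 5mC and higher in 5hmC in neurons. At Fgf12 the 5hmC level goes from 1.49 to 3.24 between PP and DP while 5mC stays at 5.48 and 5.41; at Acvr1b 5mC goes from 6.14 to 3.92 between DP and neurons.

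Most of these 9 loci passed 1.5-fold in both marks between DP and neurons. Between PP and DP, 5mC was within 1.5-fold at all 9, whereas 5hmC was already higher at Fgf12, Inhbb, Tgfbr2, and, by 0.61, Fgfr3. Between DP and neurons, 5mC was at least 1.5-fold lower at 8 of them, with Smad3 at -0.39, and 5hmC was at least 1.5-fold higher at 8, with Fgfr4 at 0.27. The loci were chosen by the difference from PP to neurons, of which these steps are the parts.

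The expression scores of the 64 genes differed between cell types in both directions. From PP to DP, 23 genes (35.9%) were at least 1.5-fold lower, against 17.0% of the 16293 genes, and 10 (15.6%) were higher, against 13.7%. Of the 23 and the 10, only 13 and 3 had a score of at least 100 in PP or DP. No share over all genes is given at that filter. From DP to neurons, 21 (32.8%) were lower, against 26.1%, and 25 (39.1%) were higher, against 26.2%. From PP to neurons, 24 (37.5%) were lower, against 31.2%, and as many were higher, against 29.8%. The tables do not name the scale of the scores, so levels are compared between cell types and not between genes.

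The genes lower in neurons included most of the FGF receptors. Fgfr3 scored 30313, 19904, and 2141 in PP, DP, and neurons, Fgfr2 11974, 4618, and 1666, and Fgfrl1 2364, 1674, and 190. Fgfr1, at 13259, 7037, and 8877, was lowest in DP. Nog had the largest difference, from 1942 over 667 to 70.6, followed by Tgfbr2, from 146 over 136 to 7.2. Smad3 went from 4234 over 2171 to 519 and Fgf15 from 301 over 134 to 23.6.

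Among the genes higher in neurons were ligands and activin receptors. Inhba scored 4.3, 4.9, and 235 in PP, DP, and neurons, and Fgf18, a ligand made by cortical plate neurons, 6.7, 10.3, and 214. The activin receptors Acvr1b (3094, 4582, and 8133) and Acvr1c (23.3, 62.4, and 504) were highest in neurons, as were Grem1 (5.9, 64.7, and 130) and Fgfr4 (11.0, 22.1, and 146). Smad4, at 6495, 7265, and 7674, and the BMP Smad gene Smad5, at 16248, 14454, and 13767, stayed within 1.5-fold.

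**Figure D5:**
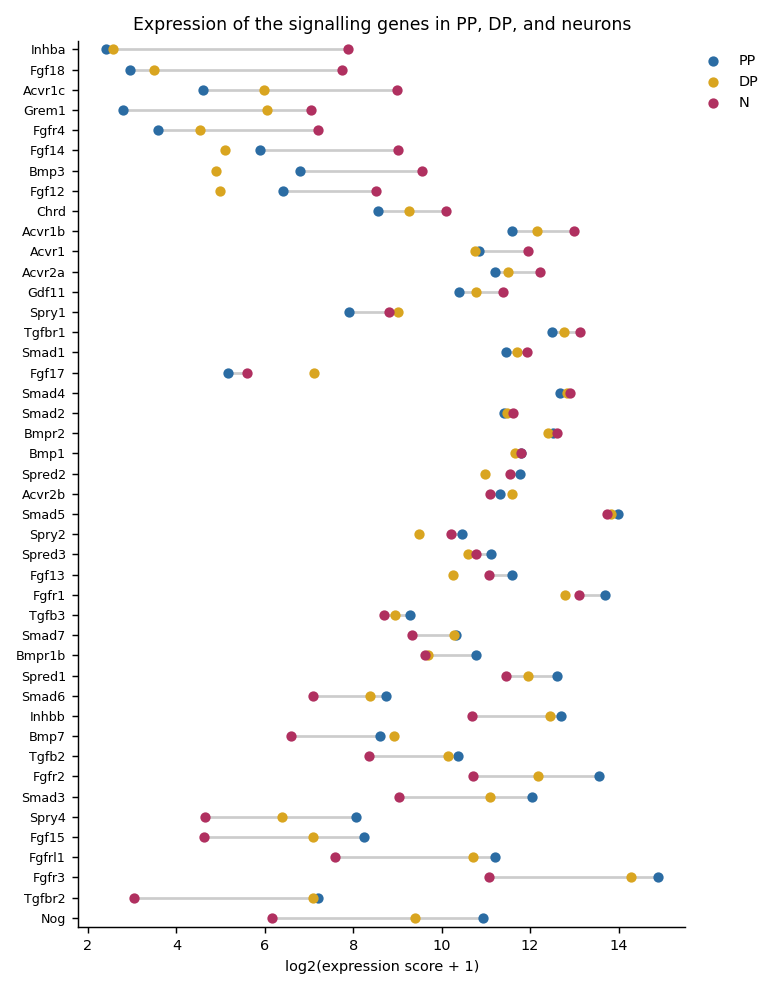
Expression of the 44 signalling genes with a score of at least 100 in PP, DP, or neurons (N), as log2 of the score plus 1 (x axis), ordered by the difference between PP and neurons, with genes higher in neurons at the top. Grey lines join PP and neurons: Inhba, at the top, goes from 4.3 to 235, and Nog, at the bottom, from 1942 to 70.6.

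The 5mC-loss/5hmC-gain loci lay near genes of both kinds. Of their 9 genes, Fgfr3, Smad3, Tgfbr2, and Inhbb (6623, 5563, and 1655) had lower expression in neurons, and Acvr1b, Acvr1 (1851, 1736, and 3956), Fgfr4, Fgf12 (83.4, 30.6, and 366), and Gdf10 (20.4, 10.5, and 98.0) had higher expression. Among signalling genes with a score of at least 100 in PP or neurons and lower expression in neurons, 37 of 105 peaks of 5hmC (35.2%) were higher in neurons, against 21.3% near all such genes. Of the 37, 7 were near Smad3, 6 near Tgfbr2, 5 near Inhbb, and 5 were listed under Fgfr2 but lie inside Ctbp2. Among the signalling genes with higher expression in neurons, 12 of 62 (19.4%) were higher, against 25.6% near all such genes. In 5mC, 13 of 113 peaks (11.5%) near the former and 7 of 51 (13.7%) near the latter were lower, against 8.87% and 13.5%. Without the peaks inside another gene, 31 of 94 (33.0%) and 9 of 53 (17.0%) were higher in 5hmC, and 13 of 99 (13.1%) and 7 of 45 (15.6%) lower in 5mC. Near signalling genes whose expression stayed within 1.5-fold, 20 of 74 peaks of 5hmC (27.0%) were higher, against 20.6% near all such genes. In 5mC, 10 of 95 (10.5%) were lower there, against 8.69%.

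Other genes of the same pathways, from a list of targets, adaptors, and secreted modulators, were read in the same way. On the FGF side, 27 of 93 peaks of 5hmC (29.0%) were higher in neurons and 9 of 112 of 5mC (8.04%) lower. On the BMP and TGF-beta side, 50 of 194 (25.8%) were higher in 5hmC and 21 of 160 (13.1%) lower in 5mC. Over all peaks, 22.1% were higher in 5hmC and 10.2% lower in 5mC. In expression, 6 of 16 genes of the FGF side were lower and 7 higher in neurons, and 20 of 33 of the other side were lower and 8 higher, against 31.2% and 29.8% of all genes. The Ets factors Etv4 (339, 168, and 17.0) and Etv5 (4985, 1666, and 283), targets of FGF signalling, were lower in neurons, as were the BMP targets Id1 (626, 385, and 41.9) and Id4 (20567, 8750, and 788). Id2 (1390, 2190, and 10808) and the MAP kinase phosphatase genes Dusp4 (859, 5606, and 15824) and Dusp6 (296, 391, and 1752) were higher. Id2 and Dusp4 also had 5mC peaks lower in neurons: Id2 248 kb upstream, at 5.92, 5.12, and 3.06, a difference of -2.69, and Dusp4 121 kb upstream, at 5.52, 5.02, and 2.27. Near Id2, 3 of 17 peaks of 5mC were lower and none higher. Near Dusp4, 4 of 19 were lower and 2 higher, against 10.2% and 5.00% of all peaks. These genes were named after their values were seen.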

How the data were processed

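The authors immunoprecipitated barcoded DNA of PP, DP, and neurons together, in 3 biological replicates per their methods, aligned single reads to mm10 with BWA 0.7.8-r455, kept for every cell type the SICER 1.1 peaks that its replicates shared, joined these into one set without repeats, and normalised levels in DiffBind. The labels give 1 sample per cell type and mark. The deposited log2 levels are means over replicates by the authors. The deposited expression score, from an earlier RNA-seq study by the authors, has no named scale, and 1 was added before log2. The distance to the start site was a further deposited score. The fold, p-value, and adjusted p-value columns of the authors' own comparisons were not used. The files used here give no read count per peak or sample, so the depth behind a level is unknown here and no interval can be given.

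Peaks were matched by gene symbol, and all rows were kept. Differences were centred on the median of all peaks, and peaks of both marks were paired at an overlap of 1 bp. Peak positions are as the tables give them, and whether they count from 0 or 1 is not known. Distances to starts and positions relative to the named gene are the deposited ones. The RefSeq spans that hold a peak and the promoter sequences are from GRCm38.p6. Named genes were the 3 member peaks with the largest positive and negative difference per mark and step among those of high level, the genes with 5mC-loss/5hmC-gain pairs, with peaks within 1000 bp of a start, with the most peaks, or with the largest expression differences, and a set of main receptors and ligands. The values of 1 gene that the rule names are not reported here. Members, lists, and rules were chosen with earlier results of these data known. Alternatives changed the centring, fold, level filter, position, overlap, pseudocount, and gene assignment. Scripts were tested on simulated data (python 3.11.15, pandas 2.3.3, numpy 2.4.6, scipy 1.17.1, matplotlib 3.10.9).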

Additional observations from a re-analysis of the deposited data

How the results depend on the processing

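Of 172 recomputed shares, counts, and medians, 123 stayed within the range taken as the same as reported, and 49 moved. That range was the exact 95% binomial interval of a share or median, or 1.5 times a count. The interval takes peaks as independent, although many lie near the same gene, so it is a yardstick and not an error. These labels do not mark a change of sign, and some medians near 0 changed sign. The 5hmC median from PP to neurons was 0.057 as reported and -0.025 without centring. No replicate could be left out, since the tables hold means. No paired analysis was possible because each group has 1 sample and the columns carry no replicate. At 2-fold, the percent of 5mC peaks lower and higher was 1.21 and 0.60 between PP and DP, 4.82 and 0.90 between DP and neurons, and 5.12 and 0.60 between PP and neurons, and of 5hmC peaks 0.69 and 7.24, 0.69 and 7.93, and 0.69 and 18.3. At the weaker fold (the higher level at least 25% above the lower) these were 19.6 and 12.7, 19.3 and 14.46, and 23.2 and 16.0 for 5mC and 20.0 and 25.5, 17.9 and 31.4, and 17.2 and 33.8 for 5hmC. No share over all peaks is given at either fold. Without centring, 16.0% of 5mC peaks were lower and 3.31% higher from DP to neurons, and 17.8% and 1.81% from PP to neurons, with medians of -0.19 and -0.22. With peaks of high level alone, 5mC from PP to DP was 2.94% lower, against 2.28% of all such peaks, with a median of 0.016. 5mC was then higher in 2.42% from DP to neurons, against 2.43%, and in 1.24% from PP to neurons, against 2.79%. 5hmC from PP to DP was 3.15% lower and 3.94% higher, against 3.54% and 5.46%, with a median of -0.085. With peaks inside genes alone, 3.10% of 5mC peaks were lower from PP to DP (5.46% over all peaks inside genes). From PP to neurons, 32.3% of 5hmC peaks were higher (26.7% over all peaks inside genes). The 5hmC medians were 0.26 from DP to neurons and 0.20 from PP to neurons, against 0.057 and 0.074 over all peaks inside genes. With peaks inside the RefSeq spans of the genes, an alternative added after the data were seen, 32.2% of 5hmC peaks were higher from PP to neurons, and the medians were 0.24 from DP to neurons and 0.14 from PP to neurons. No share over the RefSeq spans of all genes is given. The 26.7% above is by the deposited positions. Leaving out the peaks inside another gene, also added later, moved none of the 18 values. With genes scoring at least 100 alone, 13 were lower and 3 higher from PP to DP, 13 lower and 15 higher from DP to neurons, and 15 higher from PP to neurons. For the steps to and from DP, no share over all genes is given at this filter. From PP to neurons, 16 were lower, 12 within 1.5-fold, and 15 higher, against 2919, 4827, and 3508 of all genes at the same filter. Of 35 differences at single peaks, 3 came under 1.5-fold without centring. Without a read count per peak, the precision of levels close to the lowest of the tables cannot be given.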
